A study of Mus musculus with 8 samples.

Results

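The glucocorticoid receptor gene Nr3c1 and 9 genes that the receptor or its hormone is known to act on, or act through, in muscle were described in hindlimb muscle of immobilized mice. The 10 genes were a list of names (Nr3c1, Fkbp5, Tsc22d3, Ddit4, Sgk1, Zbtb16, Klf15, Cebpb, Cebpd and Hsd11b1) and were looked up by Ensembl identifier among the 55487 genes of the deposited table. All 10 were found, and all 10 were among the 16498 genes with a mean of at least 10 counts per library. The RNA came from 8 male C57BL/6J mice aged 10 weeks. Both hindlimbs of each mouse had been immobilized by casting for 8 days. The mice were given K14Q MOTS-c by intraperitoneal injection, 2 injections a day and 15 mg/kg in each day. MOTS-c is a short peptide encoded in mitochondrial DNA, and K14Q is a naturally occurring form of it with 1 amino acid changed. The sample labels name the vastus lateralis as the tissue, whereas the study's methods and design text name the gastrocnemius, so the muscle is called hindlimb muscle here. All 8 mice form 1 group, and libraries of mice given wild-type MOTS-c or no peptide were not analysed here, so neither the casting nor the peptide can be compared with a control. The numbering of the mice has no meaning beyond the name of a library.

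Glucocorticoids are steroid hormones of the adrenal cortex. They enter the cell and bind the glucocorticoid receptor, which is held in the cytoplasm by heat shock proteins and the immunophilins FKBP4 and FKBP5, and the bound receptor moves to the nucleus and binds DNA, often at a palindrome known as the glucocorticoid response element. In skeletal muscle, high glucocorticoid levels are known to slow protein synthesis, raise protein breakdown and turn fuel use toward amino acids and fatty acids, and the receptor is one of the factors studied in muscle wasting.

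Promoter windows of Sgk1, Tsc22d3 and Klf15 are shown first, the Sgk1 window for its full receptor element, the Klf15 window for its 3 E-boxes and the Tsc22d3 window for a half-site of a common kind. Sequences were taken from RefSeq on the mouse build GRCm38.p6, each covering 250 bases before and 50 bases from an annotated transcription start, and 14 windows were available for 7 of the 10 genes, of which 6 belonged to Sgk1 and 3 to Tsc22d3. Nr3c1, Zbtb16 and Cebpd had no window in this table. In the Sgk1 window at chr10:21993640-21993939 (plus strand), capitals mark a full glucocorticoid response element (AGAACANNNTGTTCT, the same on both strands) from base -189 to -175 relative to the start. In the Tsc22d3 window at chrX:140600473-140600772 (minus strand), capitals mark a half-site of that element (AGAACA on either strand, read here as TGTTCT) from base -185 to -180. In the Klf15 window at chr6:90462326-90462625 (plus strand), capitals mark 3 E-boxes (CACGTG, the same on both strands), the motif of the CLOCK and BMAL1 clock factors and of the MYC and USF families, which begin at bases -228, -172 and -3. All are written 5′ to 3′ on the strand of the gene.

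Sgk1: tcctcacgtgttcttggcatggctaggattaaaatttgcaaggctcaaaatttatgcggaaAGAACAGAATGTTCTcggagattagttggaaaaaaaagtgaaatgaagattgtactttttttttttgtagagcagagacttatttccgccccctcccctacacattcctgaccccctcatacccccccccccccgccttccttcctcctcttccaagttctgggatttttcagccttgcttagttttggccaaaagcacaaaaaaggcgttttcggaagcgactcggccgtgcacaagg

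Tsc22d3: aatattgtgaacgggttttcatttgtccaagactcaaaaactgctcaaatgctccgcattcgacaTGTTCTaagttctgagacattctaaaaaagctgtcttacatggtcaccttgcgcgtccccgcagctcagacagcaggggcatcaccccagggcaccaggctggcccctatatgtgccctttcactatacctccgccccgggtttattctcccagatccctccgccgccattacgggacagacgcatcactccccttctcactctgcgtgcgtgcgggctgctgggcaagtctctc

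Klf15: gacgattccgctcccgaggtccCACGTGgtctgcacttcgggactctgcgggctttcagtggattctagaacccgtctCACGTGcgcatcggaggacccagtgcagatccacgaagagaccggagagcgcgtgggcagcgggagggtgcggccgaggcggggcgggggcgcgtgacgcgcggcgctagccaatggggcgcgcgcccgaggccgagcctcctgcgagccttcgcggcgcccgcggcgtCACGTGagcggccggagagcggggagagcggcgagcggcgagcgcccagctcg

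The full element was rare, being in 3 of the 32851 promoter windows of the table (0.00913%), 1 of them this Sgk1 window. The same 15 bases also match the relaxed form GNACANNNTGTNC, which was in 0.475% of windows, and contain 2 of the half-sites. Half-sites were common, in 19.0% of windows. Sgk1 carried 5 matches of the half-site over its 6 windows, counting the 2 within the full element. Another of the 5 lies in the printed Sgk1 window from base -242 to -237 and overlaps the E-box at -246 to -241. E-boxes were in 7.15% of windows, and besides Klf15 and Sgk1 the Fkbp5 window on chromosome 17 held 1, from base -169 to -164. The C/EBP palindrome TTGCGCAA, in 0.183% of windows, was in none of the 14. None of these 5 motifs was matched in the windows of Ddit4, Cebpb and Hsd11b1, which says only that these letters are not within these 300 bases. Many known receptor binding sites lie outside such windows, and receptor binding was not measured.

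The libraries held between 23985356 and 33012497 counts. No 2 libraries were alike within sampling noise, the lowest chi-square per degree of freedom over the 28 pairs of libraries being 13.6. The libraries were not equally far apart. That lowest value was of mice 3 and 4, the next lowest, 18.3, was of mice 1 and 2, and the highest, 98.5, was of mice 1 and 3. Mitochondrial transcripts took 12.5% to 18.6% of the counts, and the 10 most abundant genes took 18.8% to 26.2%, both shares being low in mice 3 and 4. The labelled tissue was checked against markers. All 7 listed markers of skeletal muscle fibres were present, led by Myh4, a fast myosin heavy chain, and their summed level ran from 1568956 to 3291705 normalized counts with the lowest sums in mice 3 and 4. The 6 slow fibre markers, led by Myh7, summed to 7201 to 17123. Cells other than fibres were represented in each library by the 8 fibroblast markers (12097 to 23487, led by Dcn), the 8 macrophage and neutrophil markers (1224 to 2932, led by Mrc1, with S100a9 at 0 in 1 mouse), the 6 adipocyte markers (612 to 2187, led by Cfd), the 5 endothelial markers (3135 to 4904, led by Pecam1), the 4 satellite cell markers, 3 of them at a mean of at least 10 (304 to 492, led by Chodl), and the 5 red blood cell markers (7060 to 28320, led by Hba-a1). All 6 lymphocyte markers were at 0 in at least 1 mouse and summed to at most 9.73, Cd4 being the highest.

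Levels are given as normalized counts, which are reads per gene divided by 1 size factor per library. Nr3c1 on chromosome 18 encodes the receptor itself. Its level in mice 1 to 8 was 3981, 4221, 3113, 3227, 3317, 2944, 3229 and 3476 normalized counts, with a mean of 3438 ± 441 (SD, n = 8). Mice 1 and 2 were the highest, and the other 6 mice lay between 2944 and 3476. The coefficient of variation (CV, the SD as a percentage of the mean) was 12.8%, of which counting error alone would give 1.73%. This CV was the lowest of the 10 genes.

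Hsd11b1 (chr1:193221634-193264075, minus strand) encodes 11β-hydroxysteroid dehydrogenase type 1, the enzyme that regenerates active glucocorticoid inside the cell. It had the largest CV of the 10 genes. The values in mice 1 to 8 were 233, 244, 1057, 484, 264, 282, 236 and 301 normalized counts, a mean of 388 ± 282 (SD, n = 8), and the highest mouse was 4.55 times the lowest. Mouse 3 stood far above the others, mouse 4 was next, and the other 6 mice lay between 233 and 301. The CV was 72.9%, a value exceeded by 0.473% of the genes tested, and without mouse 3 it was 30.2%. The levels of Hsd11b1 rest on 214 to 1272 reads per library, for which counting error would give a CV of 5.02%.

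Fkbp5 (chr17:28399094-28517527, minus strand) encodes the immunophilin that lowers the receptor's affinity for its hormone, and is widely used as a readout of receptor activity. Fkbp5 measured 3739, 2189, 4400, 3920, 4678, 3901, 3735 and 3234 normalized counts in mice 1 to 8, a mean of 3724 ± 759 (SD, n = 8). Mouse 2 was the lowest, and without it the CV went from 20.4% to 11.98%. Tsc22d3 (chrX:140539528-140600659, minus strand) encodes GILZ, a leucine zipper protein through which glucocorticoids exert anti-inflammatory effects. Its values were 12776, 12303, 12934, 16269, 10068, 13207, 12827 and 16720, a mean of 13388 ± 2156. Mice 4 and 8 were high and mouse 5 low, with the other 5 mice between 12303 and 13207.

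Ddit4 (chr10:59949669-59951834, minus strand) encodes REDD1, an inhibitor of the growth kinase mTORC1. Ddit4 measured 2550, 1391, 4206, 3743, 2923, 3214, 3388 and 3419 normalized counts in mice 1 to 8, a mean of 3104 ± 853 (SD, n = 8), the highest mouse being 3.02 times the lowest. Mouse 2 was the lowest and mouse 3 the highest, and without mouse 2 the CV went from 27.5% to 16.1%. Sgk1 (chr10:21882184-21999903, plus strand) encodes a kinase related to AKT that responds to glucocorticoids and mineralocorticoids. Its values were 8373, 10443, 8626, 8428, 6864, 10422, 12953 and 11220, a mean of 9666 ± 1947. Mouse 7 was the highest and mouse 5 the lowest, an order unlike that of Ddit4. Zbtb16 (chr9:48654297-48836222, minus strand) encodes the zinc finger transcription factor PLZF. Its values were 3870, 3191, 4418, 5019, 5186, 3684, 4345 and 4309, a mean of 4253 ± 665. Mouse 5 was the highest and mouse 2 the lowest.

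Klf15 (chr6:90462576-90475238, plus strand) encodes a Krüppel-like factor that promotes amino acid and fatty acid use. Klf15 measured 1648, 1264, 2291, 2522, 1694, 1408, 1156 and 1593 normalized counts in mice 1 to 8, a mean of 1697 ± 480 (SD, n = 8). Mice 3 and 4 were above the other 6, which lay between 1156 and 1694. Cebpb (chr2:167688915-167690418, plus strand) and Cebpd (chr16:15887286-15891031, plus strand) encode the CCAAT/enhancer binding proteins β and δ. Cebpb was at 1185, 1074, 1481, 1544, 1071, 1369, 1581 and 1536, a mean of 1355 ± 215. Mice 1, 2 and 5 were below the other 5. Cebpd was at 2431, 1414, 2787, 2404, 1797, 1739, 1531 and 2389, a mean of 2061 ± 502. Mice 1, 3, 4 and 8 were at 2389 or more and the other 4 at 1797 or less. Both genes share exon bases with a gene on the opposite strand, 312 of 1504 bases of Cebpb with Tmem189 (mean 571 normalized counts) and 562 of 3746 bases of Cebpd with Spidr (mean 70.2), and because the sources do not say whether counting used the strand, reads in the shared bases could belong to either gene.

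**Figure D1:**
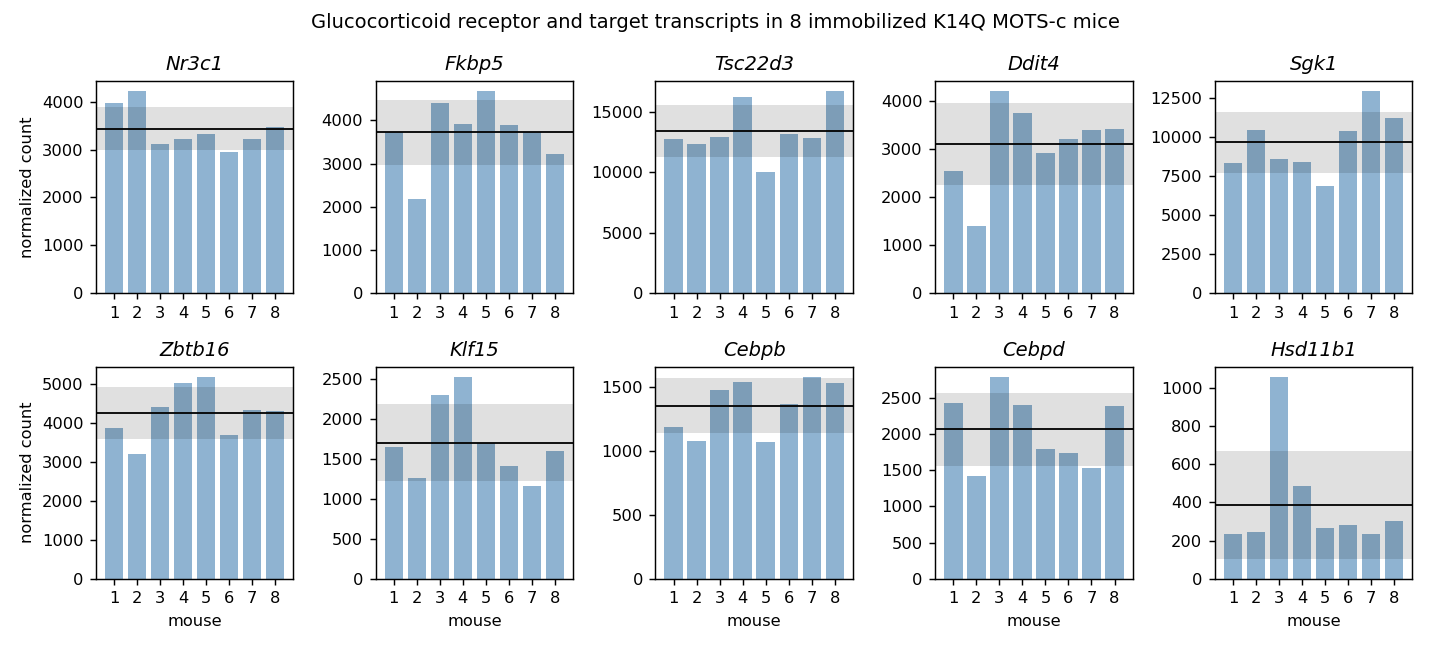
Normalized counts of the 10 genes in each of the 8 mice, 1 panel per gene and 1 bar per mouse, with a line at the mean and a grey band of 1 SD on either side. Mouse 3 stands apart for Hsd11b1 at 1057 normalized counts, and mouse 2 is the lowest for Fkbp5, Ddit4, Zbtb16 and Cebpd.

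The spread of the 10 genes was compared with that of all 16498 genes tested. The highest mouse was at least 2 times the lowest for 4 of the 10 (Fkbp5, Ddit4, Klf15 and Hsd11b1), against 28.8% of all genes. The variation between mice that edgeR estimated for the gene itself was above the trend of genes of like abundance for 6 of the 10, against 29.3% of all genes. Sorted by role, these 6 were the enzyme Hsd11b1 (44.6% against a trend of 16.6%), the targets Ddit4 (26.1% against 16.8%), Fkbp5 (19.99% against 16.8%) and Sgk1 (18.9% against 17.1%), and the transcription factors Klf15 (23.2% against 16.6%) and Cebpd (21.5% against 16.7%). Nr3c1 was below its trend, at 14.4% against 16.8%. One gene of the 10, Hsd11b1, had a single mouse whose gap to the rest passed Dixon's 95% value, against 6.07% of all genes.

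Which mouse was extreme depended on the gene. Mouse 2 had the highest Nr3c1 and the lowest Fkbp5, Ddit4, Zbtb16 and Cebpd. Mouse 3 had the highest Ddit4, Cebpd and Hsd11b1, and mouse 4 the highest Klf15. Mouse 5 had the highest Fkbp5 and Zbtb16 but the lowest Tsc22d3, Sgk1 and Cebpb. Mouse 7 had the highest Sgk1 and Cebpb and the lowest Klf15. No mouse was the highest, and none the lowest, for all of the 9 genes other than Nr3c1.

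To compare levels between genes, counts were divided by exon length and library total, giving counts per kilobase of exon per 1000000 counts of the library. On this scale Tsc22d3 was the most abundant at 105 ± 22.3 (SD, n = 8), above Sgk1 at 66.6 ± 11.8 in 8 of 8 mice. Sgk1 and Ddit4 (61.0 ± 21.01) were in that order in 5 of 8 mice, and their means differed by less than either SD. Ddit4 was above Cebpb (30.8 ± 6.56) in 8 of 8 mice, and Cebpb above Zbtb16 (27.5 ± 5.77) in 7 of 8, a pair that again differed by less than 1 SD. Next came Klf15 (21.1 ± 7.91), Cebpd (18.9 ± 5.94), the receptor Nr3c1 (15.1 ± 1.53) and Fkbp5 (13.5 ± 3.41). Klf15 and Cebpd kept their order in 6 of 8 mice, Cebpd and Nr3c1 in 6 of 8, and Nr3c1 and Fkbp5 in 5 of 8. Hsd11b1 at 3.25 ± 2.77 was below Fkbp5 in 8 of 8 mice. The ranges of neighbouring genes in this order overlapped in each case. The length used matters for Fkbp5, whose merged exons are 9468 bases and whose longest transcript is 3858 bases. With the longest transcript in place of merged exons it moved from place 9 to place 4, and 4 of the 10 genes kept their place.

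**Figure D2:**
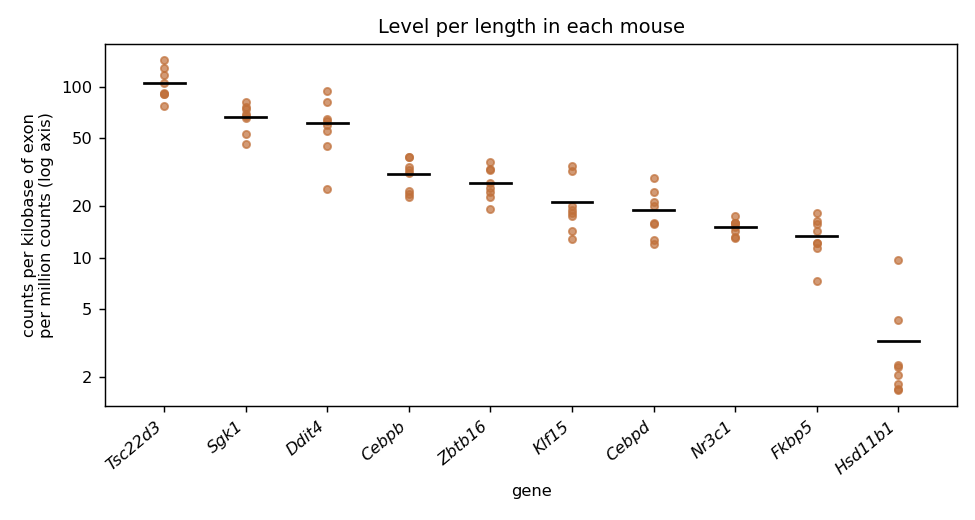
Levels per length (counts per kilobase of exon per 1000000 counts, log scale) of the 10 genes in order of their mean, with 1 point per mouse and a line at the mean. Tsc22d3 is highest at 105 and Hsd11b1 lowest at 3.25, and the ranges of neighbouring genes overlap.

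Because the 8 mice were treated alike, the question left to these data is which of the genes varied together from mouse to mouse. The measure was Pearson's r of log2(normalized count + 1) over the 8 mice, with an exact two-sided permutation test over the 40320 pairings, and Benjamini-Hochberg adjustment over all 164925 relations of the 10 genes with the genes tested. None of these relations passed the adjusted threshold of 0.05, the lowest adjusted p of the exact permutation test being 0.409 over all relations and 0.467 among the 45 pairs of the 10 genes. The unadjusted counts are therefore read against those of all genes. Of the 45 pairs, 9 had an exact p under 0.05 (20%), against 9.05% of the relations of the 10 genes with all genes. In 7 pairs (15.6%) the genes were high and low in the same mice, against 4.63%, and in 2 (4.44%) they were opposed, against 4.41%. The median r of the 45 pairs was 0.34, and that over all genes 0.0043. Without mouse 2 the count of pairs was 4 in place of 9, with 3 together and 1 opposed, against 3.82% and 3.98% of the relations with all genes, so that the count was then near the share of all genes, and the median r was 0.20. With mice 1 and 2 left out it was also 3 together and 1 opposed, against 3.73% and 3.55%, with a median r of 0.18. With mice 3 and 4 left out it was 0 together and 1 opposed, against 3.24% and 3.48%, with a median r of 0.17. Spearman's correlation gave 4 pairs together and 2 opposed, against 4.68% and 4.25%. Of the 9 pairs, Fkbp5 with Zbtb16 and Klf15 with Cebpd were also under 0.05 by Spearman's rho, and no pair of Nr3c1 was. Also under 0.05 by rho were Fkbp5 with Klf15 (rho = 0.74, exact p for rho = 0.046) and Ddit4 with Hsd11b1 (rho = 0.81, exact p for rho = 0.022). The 2 opposed were Sgk1 with Fkbp5 and Sgk1 with Klf15 (both rho = -0.74, exact p for rho = 0.046). With library totals in place of size factors there were 11 pairs together and 0 opposed, against 15.9% and 1.06% of the relations with all genes, and the median r was 0.60 for the pairs and 0.34 over all genes.

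**Figure D3:**
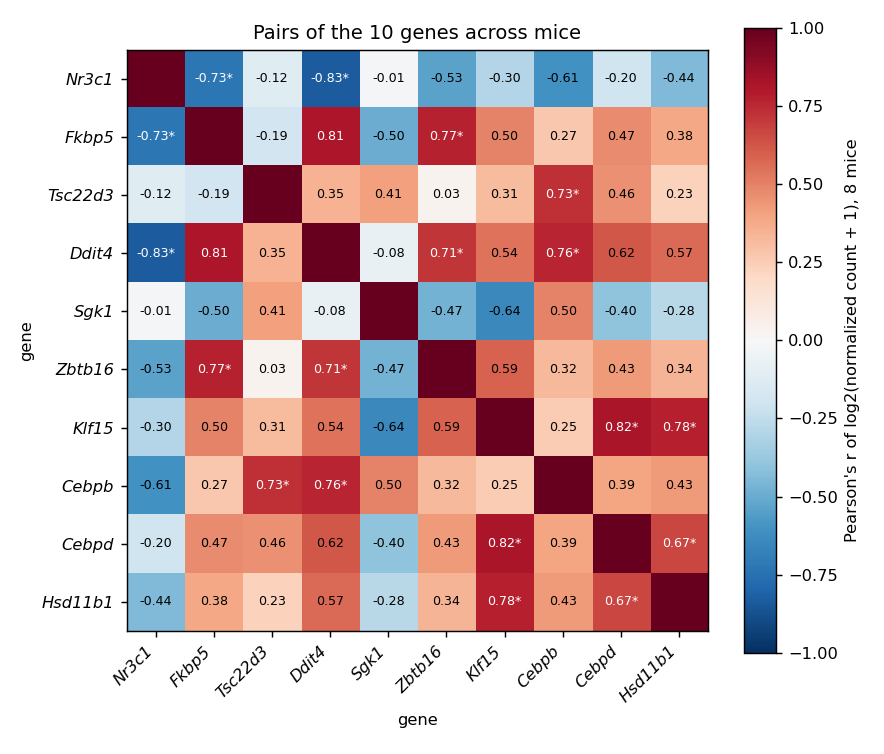
Pearson's r of log2(normalized count + 1) over the 8 mice for the 45 pairs of the 10 genes, coloured from negative (blue) to positive (red), with a star on the 9 pairs whose exact p is under 0.05 before adjustment. Nr3c1 is negative with each of the other 9 genes, and Sgk1 with 7, which library totals in place of size factors turn into 5 and 5.

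The receptor gene and the other genes tended to be high in different mice. Nr3c1 had a negative r with 9 of 9 genes, with a median of -0.44, of which 2 had an exact p under 0.05, and 2.91% of its relations with all genes did so together and 5.35% opposed. By contrast 29 of the 36 pairs among the other 9 genes had a positive r. That count was 29 with TMM factors, 26 without mouse 2, 24 with mice 1 and 2 left out and 28 with mice 3 and 4 left out. With library totals it was 32, where the median r over all genes was itself 0.34. The count of 9 was 8 with TMM factors, 7 without mouse 2 and 5 with library totals or with mice 1 and 2 left out. The median of -0.44 was -0.21 without mouse 2, -0.14 with library totals and -0.0011 with mice 1 and 2 left out. The opposition was clearest for Ddit4 (r = -0.83, exact p = 0.0078, adjusted p = 0.467, rho = -0.67, exact p for rho = 0.083) and Fkbp5 (r = -0.73, exact p = 0.040, adjusted p = 0.536, rho = -0.60, exact p for rho = 0.13). Mice 1 and 2 had the highest Nr3c1 and the lowest Ddit4, and the relation of these genes rested on them, since r was -0.16 with both left out. Without mouse 2 alone it was -0.66 (exact p = 0.11), and without mouse 1 alone -0.87 (exact p = 0.056). The relation with Fkbp5 rested on mouse 2, since r was -0.33 without it (exact p = 0.46), -0.87 without mouse 1 (exact p = 0.034) and -0.36 without both. Leaving out mouse 3, 4, 7 or 8 also left Fkbp5 short of the threshold, with exact p between 0.054 and 0.080. With library totals in place of size factors r was -0.37 for both. The summed satellite cell markers went with Nr3c1 (r = 0.79, exact p = 0.021, adjusted p = 0.296 over 130 relations with library and marker values) and against Ddit4 (r = -0.74, exact p = 0.028, adjusted p = 0.335), and without mice 1 and 2 these were 0.18 and -0.25. Ddit4 was also opposed to the fibroblast markers (r = -0.72, exact p = 0.027, adjusted p = 0.335) and the endothelial markers (r = -0.70, exact p = 0.043, adjusted p = 0.412), with which Nr3c1 had r = 0.67 and 0.70 (exact p = 0.071 and 0.055). These too rested on mice 1 and 2, without which r was -0.077 and 0.18 for Ddit4 and -0.36 and -0.22 for Nr3c1. Mouse 2 was the highest for the satellite cell, fibroblast, endothelial and adipocyte sums. Their part in the result was not tested.

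Zbtb16 shared its lowest mouse, mouse 2, with Fkbp5 and Ddit4. Fkbp5 and Zbtb16 had r = 0.77 (exact p = 0.023, adjusted p = 0.503, rho = 0.76, exact p for rho = 0.037), and Ddit4 and Zbtb16 had r = 0.71 (exact p = 0.043, adjusted p = 0.542, rho = 0.55, exact p for rho = 0.17). Fkbp5 and Ddit4 had r = 0.81 (exact p = 0.055, rho = 0.38, exact p for rho = 0.36), which misses the threshold. In all 3 genes mouse 2 was the lowest, and these values of r rested on it. Without mouse 2, r was 0.46 for Fkbp5 and Zbtb16, 0.28 for Ddit4 and Zbtb16 and 0.092 for Fkbp5 and Ddit4. Without mouse 5, which had the highest Fkbp5 and Zbtb16, the exact p of that pair was 0.088. For Ddit4 and Zbtb16 the exact p was between 0.059 and 0.10 without mouse 1, 4, 7 or 8.

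Klf15, Cebpd and Hsd11b1 each had a positive r with the others. Klf15 and Cebpd had r = 0.82 (exact p = 0.012, adjusted p = 0.481, rho = 0.81, exact p for rho = 0.022), and r was 0.78 with mice 3 and 4 both left out (exact p = 0.082) and 0.77 without mouse 7 (exact p = 0.052), both short of the threshold. Klf15 and Hsd11b1 had r = 0.78 (exact p = 0.020, adjusted p = 0.498, rho = 0.62, exact p for rho = 0.12), which rested on mice 3 and 4, since r was 0.37 without them. Cebpd and Hsd11b1 had r = 0.67 (exact p = 0.044, adjusted p = 0.544, rho = 0.45, exact p for rho = 0.27). That relation had r = 0.51 without mouse 3 (exact p = 0.23) and 0.31 with mice 3 and 4 left out (exact p = 0.50), and was short of the threshold without mouse 2, 5, 6 or 7 (exact p between 0.080 and 0.096).

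Cebpb went with Ddit4 and Tsc22d3. The pair of Ddit4 and Cebpb had r = 0.76 (exact p = 0.0088, adjusted p = 0.468, rho = 0.71, exact p for rho = 0.058), and r was 0.67 with mice 1 and 2 left out and 0.74 without mouse 2 (exact p = 0.059). Tsc22d3 and Cebpb had r = 0.73 (exact p = 0.033, adjusted p = 0.524, rho = 0.71, exact p for rho = 0.058), and r was 0.53 without mice 5 and 8. Without mouse 5 alone r was 0.58 (exact p = 0.11), and without mouse 1, 2 or 6 the exact p was between 0.053 and 0.058. For Sgk1, r was positive with Tsc22d3 (0.41) and Cebpb (0.50) and negative with 7 genes (5 with library totals), the lowest being that with Klf15 (r = -0.64, exact p = 0.084, rho = -0.74, exact p for rho = 0.046). With Fkbp5 it was -0.50 (exact p = 0.21, rho = -0.74, exact p for rho = 0.046). None of the 9 pairs of Sgk1 passed the unadjusted threshold by Pearson's r, where 5.83% of its relations with all genes did so together and 5.73% opposed. By rho its pairs with Klf15 and Fkbp5 passed.

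**Figure D4:**
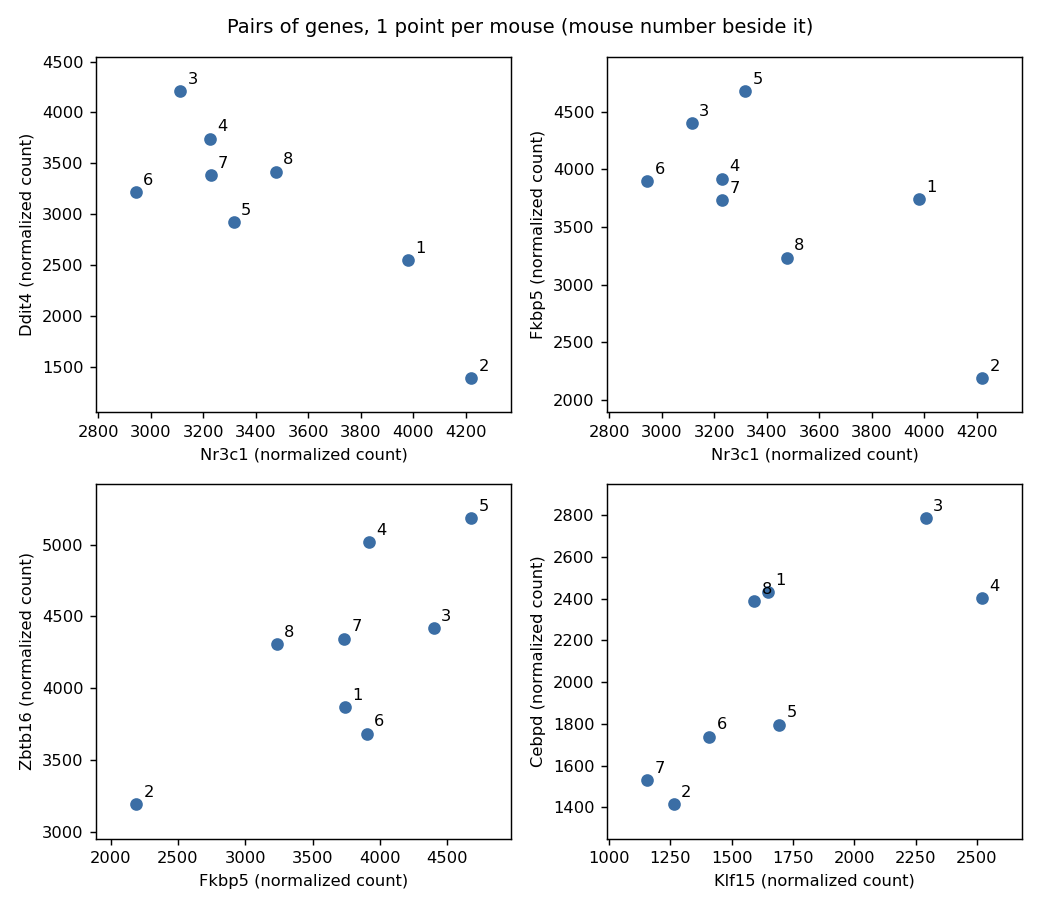
Normalized counts of Ddit4 and of Fkbp5 against Nr3c1, of Zbtb16 against Fkbp5 and of Cebpd against Klf15, with 1 numbered point per mouse. Mouse 2 is at the end of the plots that hold Nr3c1, Fkbp5 or Ddit4, and the relation of Klf15 and Cebpd is spread over all mice, with r = 0.82 for 8 mice and 0.78 without mice 3 and 4.

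Other features of the libraries moved with some of the genes. In all, 130 relations of the 10 genes with library and marker values were computed, of which 14 had an exact p under 0.05 and 0 an adjusted p under 0.05. The share of all genes against these values was not computed, so the count of 14 says nothing particular to the 10 genes. Hsd11b1 was opposed to the summed fibre markers (r = -0.89, exact p = 0.0020, adjusted p = 0.088, rho = -0.88) and r was -0.60 without the 2 mice farthest from the median of Hsd11b1. It was also opposed to the share of counts in the 10 most abundant genes (r = -0.87, exact p = 0.00067, adjusted p = 0.087). Klf15 was opposed to the mitochondrial share (r = -0.93, exact p = 0.0018, adjusted p = 0.088) and to the summed fibre markers (r = -0.83, exact p = 0.014, adjusted p = 0.269), the latter r being -0.27 without mice 3 and 4. Tsc22d3 was opposed to the library total (r = -0.87, exact p = 0.010, adjusted p = 0.243), and Cebpb to the satellite cell markers (r = -0.86, exact p = 0.0063, adjusted p = 0.203). The part of these values in the relations among the genes was not tested. In such bulk samples, fewer cells of a type and less RNA per cell cannot be told apart.

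**Figure D5:**
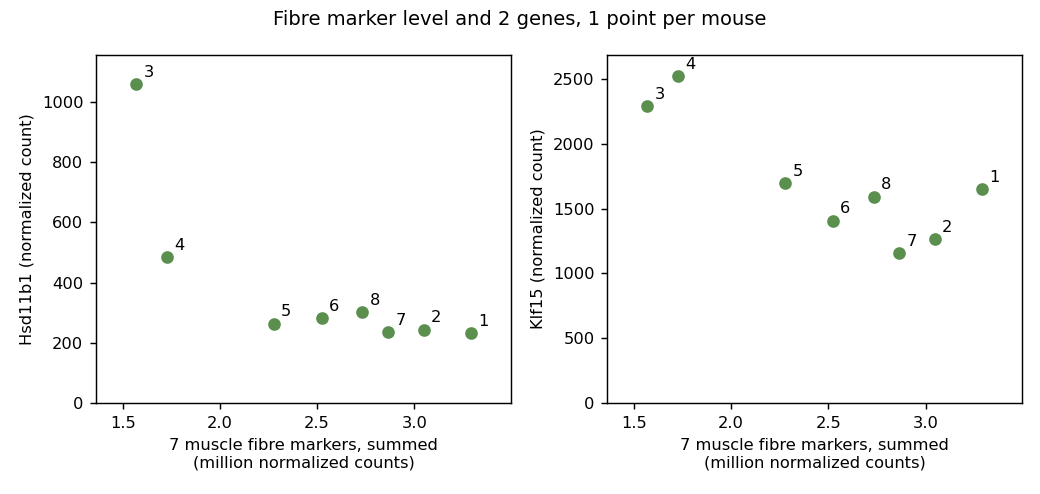
Normalized counts of Hsd11b1 and of Klf15 against the summed level of 7 skeletal muscle fibre markers, with 1 numbered point per mouse. Mice 3 and 4 have the lowest marker sums, 1568956 and 1725905 normalized counts, and the highest Hsd11b1 and Klf15.

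Lists of genes around the receptor were read in the same way, with Fkbp5 as the first gene because it is widely used as a readout of receptor activity. Receptor activity itself was not measured. Among the 10 genes, r of Fkbp5 was negative with Nr3c1, Tsc22d3 (r = -0.19, exact p = 0.61) and Sgk1 (r = -0.50, exact p = 0.21, rho = -0.74, exact p for rho = 0.046). It was positive with the rest. Of the relations of Fkbp5 with all genes, 3.35% had an exact p under 0.05 together and 2.24% opposed. The hormone and receptor handling list holds heat shock proteins and co-chaperones of the receptor, the mineralocorticoid receptor Nr3c2 and the enzymes Hsd11b2 and H6pd. Of its 11 genes 10 were tested, and 0 of them passed against Fkbp5 in either direction. Over its 100 relations with the 10 genes, 6 were together (6.0%) and 4 opposed (4.0%), close to the 4.63% and 4.41% of all relations. Hsd11b2, which inactivates glucocorticoid, reached at most 1.83 normalized counts in any mouse. The most abundant of the list, the chaperones Hsp90ab1 (45367 to 59204 normalized counts) and Hspa8 (15026 to 23085), were the 2 of the 10 that were opposed to the receptor gene, where 5.35% of all genes were, Hsp90ab1 with r = -0.88 (exact p = 0.010, adjusted p = 0.476) and Hspa8 with r = -0.84 (exact p = 0.017, adjusted p = 0.493). With mice 1 and 2 left out r was -0.36 for Hsp90ab1 and 0.21 for Hspa8. H6pd, whose product supplies the cofactor of the Hsd11b1 enzyme, measured 2527 to 3932 normalized counts, and it was opposed to none and together with 1 of the 10 genes, Klf15 (r = 0.78, exact p = 0.021, adjusted p = 0.500). With Hsd11b1 itself r was 0.69 (exact p = 0.052), which misses the threshold. H6pd, and the genes named in the next paragraphs other than Ncor1, Pdk4, Nr1d2 and Dbp, were picked after their values were seen.

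Of the 10 receptor coregulators, 0 passed against Fkbp5. The most abundant was the corepressor Ncor1 (4031 to 6174 normalized counts). Over the 100 relations of the 10 coregulators with the 10 genes, 2 were together (2.0%) and 10 opposed (10.0%), against 4.63% and 4.41% of all relations, and the median r was -0.32. The opposed relations were 14 with TMM factors, against 4.56% of all relations, 1 without mouse 2, against 3.98%, and 5 with mice 3 and 4 left out, against 3.48%. With library totals they were 0, against 1.06%, and the median r was 0.11. Of the 10 opposed relations 4 were with Cebpb, against 5.26% opposed for Cebpb with all genes, and 3 with Ddit4, against 3.93%. Ncor1 was opposed to Cebpb (r = -0.78, exact p = 0.021, adjusted p = 0.501) and to Tsc22d3 (r = -0.75, exact p = 0.032, adjusted p = 0.524). Nr3c1 itself had a median r of 0.42 with the coregulators, with 1 together and 1 opposed. It went with the corepressor gene Nrip1 (r = 0.88, exact p = 0.0077, adjusted p = 0.467), and r was 0.28 without mice 1 and 2. It was opposed to Smarca4, the ATPase of a chromatin remodelling complex that the receptor recruits (r = -0.88, exact p = 0.0020, adjusted p = 0.445), and r was -0.83 without mice 1 and 2.

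Of the 22 other known glucocorticoid targets of muscle, 21 were tested, and Tat, a classic target in liver, reached at most 0.978 normalized counts. Against Fkbp5, 1 of the 21 was together and 0 opposed, with a median r of 0.26. That gene was Pdk4, the kinase that shuts off pyruvate dehydrogenase (62168 to 96382 normalized counts, r = 0.71, exact p = 0.047, adjusted p = 0.549), and r was 0.076 without mice 2 and 5. The count of 1 was 0 with TMM factors and without mouse 2, 3 or 7, so the call of Pdk4 was lost there. Against the receptor gene, 1 was together and 3 opposed, with a median r of -0.37. Over all 210 relations of the 21 targets with the 10 genes, 31 were together (14.8%) and 5 opposed (2.38%), against 4.63% and 4.41%, and the median r was 0.36. Without mouse 2 there were 19 together and 3 opposed, against 3.82% and 3.98% of all relations, with mice 1 and 2 left out 11 and 5, against 3.73% and 3.55%, which removes most of the excess, with mice 3 and 4 left out 14 and 4, against 3.24% and 3.48%, and with library totals 78 and 3, against 15.9% and 1.06%. The median r was positive in each of these. The share together was unevenly spread over the 10 genes. It was 6 of 21 together for Ddit4, where 7.16% of all genes were, and 6 of 21 for Cebpd, where 3.06% were. It was 4 of 21 each for Klf15 (5.9% of all genes), Cebpb (5.98%) and Hsd11b1 (4.67%), 3 for Zbtb16 (4.33%), 2 for Tsc22d3 (3.12%) and 0 for Sgk1 (5.83%). The opposed relations were 3 with Nr3c1 (5.35% of all genes), 1 with Sgk1 (5.73%) and 1 with Hsd11b1 (5.24%). None were with Fkbp5 (2.24%), Tsc22d3 (3.77%), Ddit4 (3.93%), Zbtb16 (4.02%), Klf15 (6.03%), Cebpb (5.26%) or Cebpd (2.58%).

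The members of this list that went with Ddit4 included the metallothioneins Mt1 (695 to 3054 normalized counts, r = 0.94, exact p = 0.00035, adjusted p = 0.428) and Mt2 (777 to 3816, r = 0.91, exact p = 0.00047, adjusted p = 0.428). Their r without mice 1 and 2 was 0.87 and 0.80. Those that went with Klf15 were the transcription factor Foxo3 (r = 0.96, exact p = 0.00022, adjusted p = 0.428), the stress-response gene Sesn1 (r = 0.92, exact p = 0.00097, adjusted p = 0.443), Pdk4 (r = 0.83) and the muscle ubiquitin ligase gene Trim63 (r = 0.75). Without mice 3 and 4, r was 0.90 for Foxo3, 0.94 for Sesn1, 0.80 for Pdk4 and 0.35 for Trim63. Foxo1 went with Cebpb (r = 0.93, exact p = 0.0017, adjusted p = 0.445), and r was 0.91 without the 2 mice farthest from the median of Cebpb. Mstn, which encodes myostatin, the growth inhibitor of muscle, was opposed to Hsd11b1 (r = -0.81, exact p = 0.0076, adjusted p = 0.467). Hsd11b1 was far higher in mouse 3 than in the other mice, and r without that mouse is not given here. The ubiquitin ligase genes were among the most abundant of the list, with Fbxo32 at 45049 to 84735 and Trim63 at 32456 to 60044 normalized counts.

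The circadian clock list was read because glucocorticoids are secreted in a daily rhythm and set clocks in tissues, and the time of day at which each mouse was killed is not in the labels. Against Fkbp5, 0 of the 15 clock genes were together and 2 opposed. These were Nr1d2, which encodes the repressor REV-ERBβ (3079 to 4321 normalized counts, r = -0.90, exact p = 0.0057, adjusted p = 0.459), and the clock output gene Dbp (321 to 948, r = -0.72, exact p = 0.034, adjusted p = 0.525). Without mice 2 and 5, r was -0.42 for Nr1d2 and -0.41 for Dbp. Against Zbtb16 the list had 2 genes together and 3 opposed, where 4.33% and 4.02% of all genes were, and a median r of 0.13. Nr1d2 and Dbp were among the opposed, Nr1d2 with r = -0.85 (exact p = 0.0081, adjusted p = 0.467) and Dbp with r = -0.86 (exact p = 0.0051, adjusted p = 0.457), and without the 2 mice farthest from the median of Zbtb16 r was -0.43 and -0.70. Over the 150 relations of the list with the 10 genes, 8 were together (5.33%) and 11 opposed (7.33%), against 4.63% and 4.41% of all relations.

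The genes most like each of the 10 were taken from the 3 with the highest r over the 8 mice among all genes tested. As these are the highest of 16497 values each, they are a description with no test. For Nr3c1 they were Agmo (r = 0.98) and Ddah2 (0.96). For Fkbp5 they were Slc25a29 (0.97), Zdhhc23 (0.96) and Ptges2 (0.95), and for Zbtb16 they were Rpusd3 (0.97), Lmod2 (0.97) and Tsen54 (0.97). Lmod2, which encodes an actin filament protein of the sarcomere, was by far the most abundant of these at 6294 to 17221 normalized counts. Tsc22d3 was most like Mgea5 (0.98), the gene of the enzyme that removes O-linked N-acetylglucosamine, then Usb1 (0.96) and Mettl6 (0.95). Ddit4 was most like Fuom (0.99) and Surf2 (0.97). Sgk1 was most like the processed pseudogene Gm6394 (0.98), whose reads may come from near-identical copies, Acot6 (0.98) and Cmas (0.98). Klf15 was most like 1110065P20Rik (0.97), Gm12592 (0.96) and, between them, Tsc22d1 (0.97), a relative of Tsc22d3. Cebpb was most like Adprh (0.99), Abca4 (0.97) and Abhd17c (0.97). Cebpd was most like Uhrf2 (0.96), 4833411C07Rik (0.94) and the pseudogene Hspd1-ps4 (0.93), the last at 6.62 to 24.1 normalized counts. Hsd11b1 was most like Hopx (0.97), a homeodomain-only protein gene at 34.0 to 90.6 normalized counts, Ppp1r10 (0.94) and Tbc1d10a (0.94). None of the 10 genes was among the 3 nearest of another.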

How the data were processed

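Skeletal muscle RNA of 8 mice was sequenced from poly-adenylated RNA. The authors mapped reads to GRCm38 with STAR, took gene counts from summarizeOverlaps and normalized these with DESeq2, with FastQC and fastp named for read quality. Annotation release, strand and multimapping settings are not given in the sources used here. The deposited signal is the read count divided by 1 size factor per library. Whole reads were recovered for 100% of the values within 0.01 read, whereas the design had assumed counts or normalized counts. Totals were 23985356 to 33012497 counts. Counts are reads without molecular identifiers, so counting errors cover sampling of reads only.

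Of 55487 identifiers, 55227 were found in GENCODE M21 (GRCm38), which gave symbols, positions and merged exon lengths. The 16498 genes with a mean of at least 10 counts were tested. Pearson's r used log2(normalized count + 1), with exact two-sided permutation tests and Benjamini-Hochberg adjustment over 164925 relations. Spearman's rho was added, as was r with 2 mice left out, those farthest from the median of the first gene. Variation between mice was estimated with edgeR 4.0.16 in R 4.3.3 on the recovered counts, with no test of a difference, since there is 1 group. Other steps used Python 3.11.15, numpy 2.4.6, pandas 2.3.3 and scipy 1.17.1. The statistics were tested on simulated data. The labels do not say more than that the 8 samples are separate replicates. The exact p-values take these samples as independent and give the share of their pairings with an r at least as strong in either direction.

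The genes and lists were chosen with earlier results of these data known, and the printed motifs were kept after others (CCAAT, TATA and GC boxes and CRE, heat shock and FOXO sites) had been looked at. Genes named were the 10, the 3 nearest to each by r, the genes of each pathway list with exact p under 0.05 against Fkbp5 or otherwise its 2 most abundant, and the most abundant gene of each marker list. Any other was named after its values were seen, and a few that the rule names are not reported here. Alternatives were TMM factors, library totals, a pseudocount of 5, Spearman's correlation, other count minimums, medians, the longest transcript and each mouse left out. Leaving out mice 1 and 2, or 3 and 4, the share of all relations under Spearman's correlation, all alternatives for the pooled list relations, and other scalings for outlying mice were added after the data were seen.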

Additional observations from a re-analysis of the deposited data

Results flagged for a closer look

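Hsd11b1 in mouse 3 was at 1057 normalized counts, and its distance from the next mouse was 0.695 of the whole range, past Dixon's 95% value for 8 samples. The other 7 mice lay between 233 and 484. In this mouse Hsd11b1 rested on 1272 reads, and the summed fibre markers were the lowest of the 8 mice, a value whose part in the result was not tested. Of 19 values examined in this way (the 10 genes and 9 marker sums) 1 passed, where chance gives 0.95.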

How the results depend on the processing

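No paired analysis was possible because there is only 1 group. The means of the 10 genes moved by less than 1 SD with TMM factors, library totals or the median. Leaving out each mouse gave a CV of 11.98% to 22.1% for Fkbp5, 16.1% to 29.8% for Ddit4 and 30.2% to 80.8% for Hsd11b1. It gave 4 to 10 pairs with exact p under 0.05, with 3 to 7 together and 1 to 4 opposed. With mice 1 and 2 both left out there were 4 such pairs (3 together, 1 opposed), and with mice 3 and 4 both left out 1 (0 together, 1 opposed), against 3.73% together and 3.55% opposed over all relations in the first case and 3.24% and 3.48% in the second. Spearman's correlation gave 4 pairs together and 2 opposed, not all of them among the 9 pairs of Pearson's r. Library totals gave 11 together and 0 opposed, with 17.0% of all relations past the threshold in place of 9.05%. The 9 named pairs were recomputed 126 times in all. They kept direction and threshold in 77, missed the threshold in 48, and turned in 1, the r of Ddit4 and Zbtb16 being -0.038 with mice 1 and 2 left out. Against Fkbp5, the number of genes past the threshold was 2 with library totals and 0 to 1 with each mouse left out for receptor handling, 1 and 0 to 1 for coregulators, 6 and 0 to 2 for the other targets (0 with TMM factors), and 1 and 0 to 3 for the clock. The share of all genes against Fkbp5 was not computed in these settings, and with library totals 17.0% of all relations passed. With the longest transcript 4 of 10 genes kept their place by level per length. Over the relations of lists with the 10 genes, coregulators gave 5 together and 0 opposed with library totals (all relations 15.9% and 1.06%). They gave 1 and 1 without mouse 2 (3.82% and 3.98%), 1 opposed without mice 1 and 2 (3.55%) and 5 without mice 3 and 4 (3.48%). The other targets gave, of 210, 78 and 3 with library totals (all relations 15.9% and 1.06%), 19 and 3 without mouse 2 (3.82% and 3.98%), and 11 and 14 together without mice 1 and 2 (3.73%) or 3 and 4 (3.24%). Causes were not tested. The lowest count of any of the 10 genes in a library was 214 reads, and the part of depth in the results was not tested.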
